A study of Mus musculus with 3 samples.

Results

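The STHdhQ111/Q111 and STHdhQ7/Q7 striatal cell lines were compared after treatment with a control oligo, across all genes and by gene family and function. The comparison used 2 of the 3 arrays of the series, 1 for each line. Its members were the 22180 genes left when rows of the value table with exactly 1 gene symbol (23521 of 41345 rows) were reduced to the row with the highest mean over the 3 arrays for each gene. Q111-Control was a culture of a line whose knock-in Htt alleles hold a humanized exon 1 with 111 polyQ repeats. Q7-Control was a culture of the matching line with 7 polyQ repeats. Both lines are labelled C57BL6/J, both were kept at 33 °C, and both received a non-specific morpholino oligo carried into the cells by 6 µM Endo-Porter and were harvested after 48 h. Q111-ASOs, a further culture of the STHdhQ111/Q111 line, received 3 µM each of 2 morpholino oligos against the splice sites of Rest exon 3, and its own values are given beside those of Q111-Control where they help to read a gene. Each genotype is represented by 1 cell line and 1 array, so genotype, line and array cannot be told apart. No replicate check was possible, neither a p-value nor an SD between cultures was computed, and precision is limited throughout by having 1 array a side.

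Striatal projection neurons are the cells most affected in Huntington's disease, which is caused by an expanded glutamine tract in huntingtin. STHdh lines were made from the striatal primordium of knock-in embryos and immortalised with a temperature-sensitive large T antigen, so they divide at the lower temperature and serve as a progenitor-like model in which the mutant protein is present at the endogenous level. An expressed progenitor programme would include Sox2, Nes and Pax6, whereas a mesenchymal programme would include fibrillar collagens, small leucine-rich proteoglycans and Twist or Prrx transcription factors.

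Signals are log2 values as deposited and differences are Q111-Control minus Q7-Control, so that 1 on this scale is a 2-fold difference. Genes over 2-fold apart were counted. Of the 22180 genes, 451 (2.03%) were counted as higher in Q111-Control, 562 (2.53%) as lower, and 21167 lay within 2-fold. The shares of 2.03% higher and 2.53% lower are the background for the share of each gene list given beside its counts. At these shares a short list can hold no gene over 2-fold, so the absence of such genes from a short list is near the background. The median signal over genes was 6.51 in Q111-Control and 6.54 in Q7-Control. Values of 9630 genes (43.42%) were identical on the 2 arrays to the last deposited digit, so a median difference of 0 in a list of genes often marks such ties. The median difference was 0.00 over all genes and exactly 0 in 74 of 110 gene lists. It was above 0.2 in 4 lists and below −0.2 in 6, whose medians are given with them, and it lay between these limits in every other list. Higher thresholds gave 159 higher and 144 lower genes over 4-fold, 74 and 55 over 8-fold, 26 and 10 over 16-fold, and 7 and 2 over 32-fold. Counted genes were most frequent at mean signals from 7 to 8 (5.80% higher and 6.94% lower of 2088 genes) and least frequent below 5 (0.163% and 0.286% of 4899 genes).

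Olfactory, vomeronasal and taste receptor genes, which are normally silent outside sensory epithelia, served as an empirical range of signals for genes that are not expressed. Their 1425 genes had a median signal of 3.78 in Q111-Control and 3.80 in Q7-Control. The 95th percentile was 5.79 on each array, and 2 of the genes differed by more than 2-fold. The Q7-Control signal lay inside this range for 112 of the 451 higher genes, and the Q111-Control signal lay inside it for 101 of the 562 lower genes. Fold differences of these genes depend on a signal that could not be separated from that of silent genes. On either array 14102 of the 22180 genes had a signal above this range, and they held 438 of the higher and 553 of the lower genes. The shares of all genes are thus lower than those of expressed genes. They are a low background for a list of mostly expressed genes and a high one for a list of mostly silent genes.

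**Figure D1:**
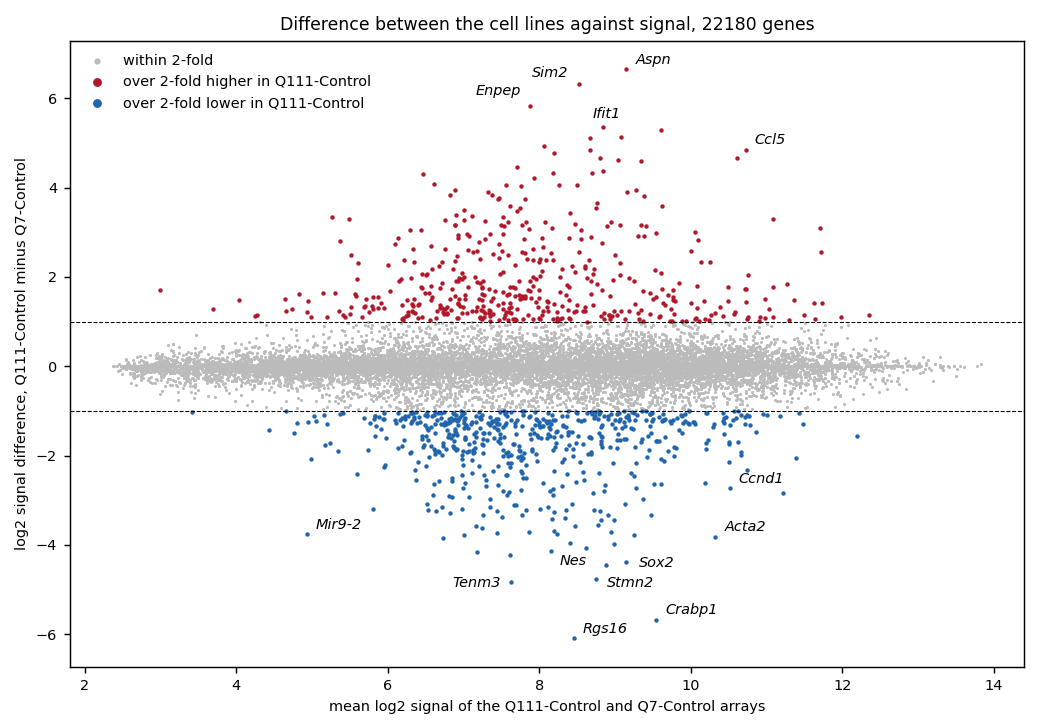
Log2 signal difference between the lines (y axis, Q111-Control minus Q7-Control) against the mean log2 signal of the 2 arrays (x axis), with 1 point per gene for 22180 genes and dashed lines at a 2-fold difference. The 451 genes higher in Q111-Control and the 562 lower genes spread over the middle of the signal range, and points close to the left edge rarely leave the 2-fold band.

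The label of a striatal progenitor line was set against marker genes. Of 9 neural progenitor markers, 6 were lower in Q111-Control, 0 were higher, and the median difference of the list was −1.08. Sox2, a transcription factor that keeps neural stem cells undifferentiated, had a signal of 6.96 in Q111-Control, 7.30 in Q111-ASOs and 11.34 in Q7-Control. The intermediate filament gene Nes had 6.08 in Q111-Control and 10.21 in Q7-Control. Pax6, a forebrain patterning factor, had 6.21 in Q111-Control and 7.82 in Q7-Control. Fabp7, the fatty acid-binding protein of radial glia, had 7.40 in Q111-Control and 8.98 in Q7-Control. Vim, Hes5 and Sox1 were equal on the arrays, and the filament gene Vim, shared by progenitors and mesenchymal cells, had 13.78 on both. Sox2, Nes, Pax6 and Fabp7 were all above the receptor range in Q7-Control, and Nes and Pax6 were near its upper end in Q111-Control.

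Markers of differentiated striatal neurons were mostly at or near the receptor range in both lines. Of 8 projection-neuron markers, 3 had a signal above that range on either array, and the highest signal in Q7-Control was 7.41. The dopamine receptor gene Drd1 had a signal of 4.04 on both arrays, Drd2 5.02 on both, and the projection-neuron transcription factor gene Bcl11b 5.77 on both, all inside the receptor range. Gad1, the GABA-synthesising enzyme, was just above that range with 6.04 on both. Penk, which encodes the enkephalin precursor of indirect-pathway neurons, was the only 1 of 8 projection-neuron markers beyond 2-fold, with 7.96 in Q111-Control and 6.00 in Q7-Control. Among 11 pan-neuronal markers only the tubulin gene Tubb3 passed 2-fold, with 5.95 in Q111-Control and 7.79 in Q7-Control. Of these 11, 6 had a signal above the receptor range on either array, and the highest was Map2, with 10.57 in Q111-Control and 10.35 in Q7-Control. Dcx, a microtubule protein of migrating neuroblasts, had 4.27 on both arrays.

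Glial and mesenchymal markers were mixed. Of 9 astrocyte markers, 2 (22.2%) were higher in Q111-Control and 0 lower. Differences were above 0 for 3 of them, below 0 for 4 and equal for 2, and the lowest was −0.93. The glutamate transporter gene Slc1a3 had a signal of 10.61 in Q111-Control and 8.46 in Q7-Control, and the transcription factor gene Sox9 had 10.70 in Q111-Control and 9.29 in Q7-Control, whereas the astrocyte filament gene Gfap had 6.20 in Q111-Control and 6.22 in Q7-Control. None of 15 microglial markers and none of 9 epithelial markers differed by more than 2-fold, which in lists this short is near the shares of all genes (2.03% higher and 2.53% lower). Of 12 fibroblast markers, 3 (25%) were higher in Q111-Control and 0 lower, with a list median of 0.45. Col1a2, a chain of type I collagen, had 11.29 in Q111-Control and 7.49 in Q7-Control, and the fibulin gene Fbln1 had 9.83 in Q111-Control and 6.96 in Q7-Control. Other fibroblast markers were high in both lines: Prrx1 had 12.75 in Q111-Control and 12.46 in Q7-Control, and the receptor gene Pdgfrb had 11.70 in Q111-Control and 11.16 in Q7-Control. Smooth muscle actin Acta2 went the other way, with 8.42 in Q111-Control and 12.23 in Q7-Control, and 2 of 12 smooth muscle or pericyte markers (16.7%) were lower. Flt1, a VEGF receptor listed as an endothelial marker, had 6.46 in Q111-Control and 9.88 in Q7-Control, while the other 8 endothelial markers were equal on the 2 arrays. Such ties do not show equal expression, and only 3 of the 9 markers, Flt1 among them, had a signal above the receptor range on either array. Fewer cells of a type and less RNA per cell cannot be told apart in such bulk samples.

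**Figure D2:**
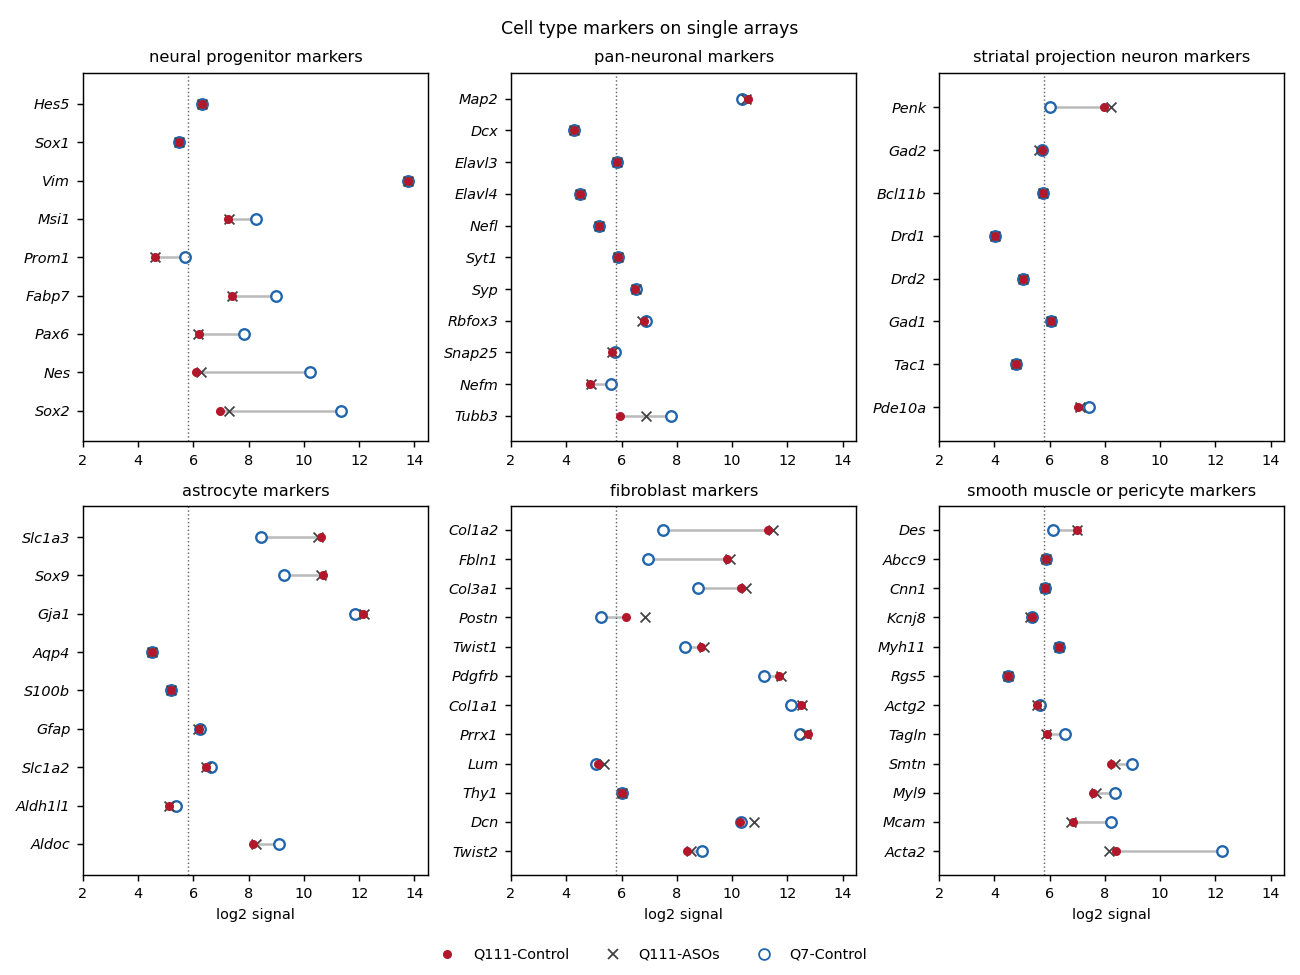
Log2 signal (x axis) of each measured marker gene (rows) of 6 cell types in Q111-Control (filled red), Q111-ASOs (cross) and Q7-Control (open blue), 1 array each; the dotted line at 5.79 is the 95th percentile of receptor genes. Sox2 and Nes lie far to the left in both Q111 cultures, and Col1a2 and Fbln1 far to the right. In Q111-Control or Q7-Control, 6 of 11 pan-neuronal markers and 3 of 8 projection-neuron markers had a signal above the receptor range.

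MicroRNA genes were measured too. Their array signals come from primary or hairpin transcripts and not from the mature RNA. Of 478 microRNA genes, 14 (2.93%) were higher in Q111-Control and 3 (0.628%) lower, the first near the share of all genes. Of the 478, 150 had a signal above the receptor range on either array, against 14102 of all 22180 genes, so the shares are not matched for signal. Mir9-2, a source of the neural microRNA miR-9, had the largest difference, with a signal of 3.05 in Q111-Control, 3.17 in Q111-ASOs and 6.81 in Q7-Control. The other copies of this microRNA gave 4.94 in Q111-Control and 5.76 in Q7-Control for Mir9-1, and 6.99 on both arrays for Mir9-3. Mirlet7c-1 had 3.95 in Q111-Control and 6.03 in Q7-Control, and its neighbour Mir99a had 5.61 in Q111-Control and 6.77 in Q7-Control. Mir196a-1, which lies among the Hoxb genes, had 7.01 in Q111-Control and 5.66 in Q7-Control. Mature sequences from RefSeq (GRCm38.p6) are shown for these 4 genes because each lies in a run of neighbouring genes that differed in the same direction, as described further on. Capitals mark the seed, bases 2 to 8, and no whole seed is shared among the 4. The seeds of let-7c-5p and miR-196a-5p both hold the stretch AGGUAG, offset by 1 base.
miR-9-5p (Mir9-2, chr13:83738821-83738843, plus strand): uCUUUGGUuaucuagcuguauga
let-7c-5p (Mirlet7c-1, chr16:77599672-77599693, plus strand): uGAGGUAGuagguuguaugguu
miR-99a-5p (Mir99a, chr16:77598940-77598961, plus strand): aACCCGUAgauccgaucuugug
miR-196a-5p (Mir196a-1, chr11:96265187-96265208, plus strand): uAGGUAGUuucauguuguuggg

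Transcription factors that pattern the embryo separated the lines in both directions. Hox genes, which specify position along the body axis and are normally silent in the forebrain, were higher in Q111-Control for 8 of 36 (22.2%) and lower for 0. These were 3 of 9 Hoxa genes and 5 of 10 Hoxb genes, against 0 of 9 Hoxc and 0 of 8 Hoxd genes. Hoxa2 had a signal of 8.37 in Q111-Control and 5.50 in Q7-Control, and Hoxa5 had 7.46 in Q111-Control and 4.72 in Q7-Control. Hoxb9 was well above the receptor range in both, with 11.45 in Q111-Control and 10.01 in Q7-Control. Hoxb6 had 8.81 in Q111-Control and 7.01 in Q7-Control, also above the receptor range in both.

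Among 42 mesenchymal and neural crest transcription factors, 8 (19%) were higher in Q111-Control and 4 (9.52%) lower. Sim2, a bHLH-PAS factor, had the next largest difference after Aspn, with 11.68 in Q111-Control and 5.36 in Q7-Control. Osr2, a zinc-finger factor of palate and limb mesenchyme, had 10.52 in Q111-Control and 6.98 in Q7-Control. The endoderm and mesoderm factor gene Gata6 had 9.11 in Q111-Control and 5.97 in Q7-Control. The lower genes were the mesodermal and crest factors Tbx20 (5.01 in Q111-Control, 8.26 in Q7-Control), Foxf1 (7.89 in Q111-Control, 10.85 in Q7-Control), Tfap2a (6.57 in Q111-Control, 9.07 in Q7-Control) and Tbx3 (7.51 in Q111-Control, 8.74 in Q7-Control). Both lines thus expressed mesenchymal regulators, with different members high in each.

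Of 27 forebrain and ganglionic eminence factors, 2 (7.41%) were higher in Q111-Control and 4 (14.8%) lower. The cortical and eye-field factor gene Lhx2 had a signal of 7.66 in Q111-Control and 9.63 in Q7-Control, and Otx1 had 7.89 in Q111-Control and 9.49 in Q7-Control. Nr2f1 and Nr2f2, nuclear receptors that pattern the telencephalon, were lower by log2 differences of −1.42 and −1.30. The 2 higher genes both act in the developing striatum. Ebf1, a factor of direct-pathway neurons, had 10.52 in Q111-Control and 9.06 in Q7-Control, and Zfp503 had 10.21 in Q111-Control and 8.29 in Q7-Control. Dlx2, which marks ganglionic eminence progenitors, had 9.14 in Q111-Control and 8.71 in Q7-Control, within 2-fold.

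Of 19 Sox factors, 4 (21.1%) were lower in Q111-Control and 2 (10.5%) higher. Besides Sox2, Sox6 had a signal of 5.77 in Q111-Control and 8.92 in Q7-Control, Sox21 had 6.73 in Q111-Control and 8.23 in Q7-Control, and Sox11 had 5.89 in Q111-Control and 7.25 in Q7-Control. The difference of Sox21 was −0.77, within 2-fold, when all of its rows were averaged. Sox5 and Sox9, which act in cartilage as well as in glia, were higher by log2 differences of 1.27 and 1.41. The nuclear receptor gene Nr1h5 had 8.65 in Q111-Control and 4.57 in Q7-Control, and the retinoic acid-binding protein gene Crabp1 had 6.71 in Q111-Control and 12.38 in Q7-Control.

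Small leucine-rich proteoglycans, collagens and other matrix glycoproteins were more often higher than lower in Q111-Control. Large and membrane proteoglycans were not, with 2 higher and 2 lower of 23 genes (8.7% each). Of 13 small leucine-rich proteoglycans, which bind collagen fibrils, 4 (30.8%) were higher and 1 (7.69%) lower. Aspn had a signal of 12.48 in Q111-Control, 12.59 in Q111-ASOs and 5.82 in Q7-Control, the largest difference of the whole comparison. Bgn had 13.25 in Q111-Control and 10.15 in Q7-Control, Omd had 11.03 in Q111-Control and 8.04 in Q7-Control, and Ogn had 13.00 in Q111-Control and 10.44 in Q7-Control. Prelp, another member of this family, had 9.70 in Q111-Control and 11.63 in Q7-Control, a difference that shrank to −1.04 when its rows were averaged. Dcn, the best-known member, had 10.27 in Q111-Control and 10.31 in Q7-Control.

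Of 44 collagen genes, 7 (15.9%) were higher and 3 (6.82%) lower. The higher ones included 3 chains of the microfibrillar type VI collagen: Col6a3 had a signal of 11.29 in Q111-Control and 8.72 in Q7-Control, Col6a2 had 12.19 in Q111-Control and 10.35 in Q7-Control, and Col6a1 had 12.93 in Q111-Control and 11.77 in Q7-Control. Col6a1 was within 2-fold when its rows were averaged, which left 6 higher collagen genes. Fibrillar chains Col1a2, Col5a2 and Col3a1 were higher by log2 differences of 3.80, 1.69 and 1.54, while Col1a1, the partner chain of Col1a2, had 12.49 in Q111-Control and 12.12 in Q7-Control. The lower chains were Col8a1, of a short-chain network collagen (8.41 in Q111-Control, 10.44 in Q7-Control), and the basement membrane chains Col4a6 (−1.60) and Col18a1 (−1.02). Of the type I collagen chains, 1 thus passed 2-fold and the other did not.

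Among 35 other matrix glycoproteins, 8 (22.9%) were higher and 1 (2.86%) lower. The microfibril gene Fbn2 had a signal of 11.09 in Q111-Control and 6.25 in Q7-Control, and Tgfbi, a collagen-binding adhesion protein, had 12.73 in Q111-Control and 9.44 in Q7-Control. Mfap5, another microfibril component, had 8.12 in Q111-Control and 6.23 in Q7-Control. The single lower gene was tenascin Tnc, an anti-adhesive matrix protein, at a log2 difference of −2.32. Aebp1, Ndnf and Sned1, outside these lists, were among the 15 highest differences of genes with a signal at or over 6.55 in either line: Aebp1, a collagen-binding protein gene, had 12.24 in Q111-Control and 6.96 in Q7-Control, the secreted Ndnf had 10.52 in Q111-Control and 5.59 in Q7-Control, and the matrix protein gene Sned1 had 11.35 in Q111-Control and 6.73 in Q7-Control.

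Matrix receptors and enzymes gave other counts than the matrix genes. Of 26 integrin genes, 6 (23.1%) were lower in Q111-Control and 0 higher. The lower genes included the laminin-binding subunit genes Itga7, with a signal of 7.00 in Q111-Control and 10.97 in Q7-Control, Itga3, with 9.14 in Q111-Control and 10.62 in Q7-Control, and Itga6, with 9.03 in Q111-Control and 10.24 in Q7-Control. They were not all of this kind, because Itgb8 was lower too, by an amount between those of Itga3 and Itga6. The common subunit gene Itgb1 had 11.78 in Q111-Control and 12.15 in Q7-Control, within 2-fold. Of 12 laminin and nidogen genes, Lama4 was higher (9.36 in Q111-Control, 5.59 in Q7-Control) and Lama5 and Lama2 were lower, with log2 differences of −1.40 and −1.63. Among 15 cell-surface peptidases, 3 (20%) were higher and 0 lower. Enpep, which cleaves angiotensin peptides, had 10.79 in Q111-Control and 4.96 in Q7-Control, and Mme, which encodes neprilysin, had 12.94 in Q111-Control and 8.28 in Q7-Control. In the Adam and Adamts families 3 of 55 genes were higher and 3 lower (5.45% each), led by Adamts1 (11.30 in Q111-Control, 8.96 in Q7-Control) and Adamtsl3 (6.35 in Q111-Control, 10.04 in Q7-Control). With rows averaged, Adam19 and Adamts14 were within 2-fold at 0.80 and 0.71, and 1 higher gene was left.

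Interferon-stimulated effectors had the highest share of higher genes among the 110 lists. Type I interferon acts through a transcription factor complex containing Irf9 that binds interferon-stimulated response elements in promoters, and the induced proteins block viral RNA, translation or budding. Of 31 effectors measured, 16 (51.6%) were higher in Q111-Control, against 2.03% of all genes, 1 was lower, and the median difference was 1.19. Ifit1, which binds foreign 5′ RNA ends, had a signal of 11.53 in Q111-Control, 11.65 in Q111-ASOs and 6.16 in Q7-Control. Oasl2, of the oligoadenylate synthetase-like family, had 9.33 in Q111-Control and 5.57 in Q7-Control. Usp18, which removes the ubiquitin-like modifier Isg15, had 9.08 in Q111-Control and 6.55 in Q7-Control, and Isg15 itself had 6.96 in Q111-Control and 5.76 in Q7-Control.

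Not all effectors were apart. Mx1 had a signal of 4.99 in Q111-Control and 4.92 in Q7-Control, inside the receptor range, and Eif2ak2, the RNA-activated kinase PKR, had 8.56 on both arrays. Ifitm3, an entry inhibitor, had 12.50 on both, and Ifit3, a close relative of Ifit1, had 7.26 in Q111-Control and 7.08 in Q7-Control. The values of Eif2ak2 and Ifitm3 are ties of the kind seen for 43.42% of genes, so they do not show equal expression. Members of the Ifit and Oas families are similar in sequence, so a signal can be shared between them. Bst2, the virus-tethering protein gene, was the lower member with 6.24 in Q111-Control and 7.26 in Q7-Control. In Q111-ASOs, the second culture of the same line, Oasl2 had 9.42, Usp18 9.03 and Isg15 6.97.

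Of 14 interferon-inducible GTPases, which attack intracellular vacuoles, 4 (28.6%) were higher and 0 lower, and the median difference was 0.22, with Gbp7 at 8.79 in Q111-Control and 5.43 in Q7-Control and Gbp3 at 6.76 in Q111-Control and 4.45 in Q7-Control. Of 29 nucleic-acid sensors and interferon signalling genes, 7 (24.1%) were higher and 1 (3.45%) lower, with a median of 0.35, and Ifih1 and Zbp1 stand in both this list and that of the effectors. The cytosolic RNA sensor gene Ifih1 had 8.71 in Q111-Control and 5.86 in Q7-Control, the DNA sensor gene Cgas had 7.55 in Q111-Control and 5.49 in Q7-Control, and the transcription factor genes Irf7 and Irf9 had differences of 2.02 and 1.06. The endosomal RNA receptor gene Tlr3 was lower, with 7.88 in Q111-Control and 8.88 in Q7-Control. Ifnb1, which encodes interferon beta, had 3.76 on both arrays, inside the receptor range, and the receptor chain gene Ifnar1 had 11.11 in Q111-Control and 10.86 in Q7-Control.

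**Figure D3:**
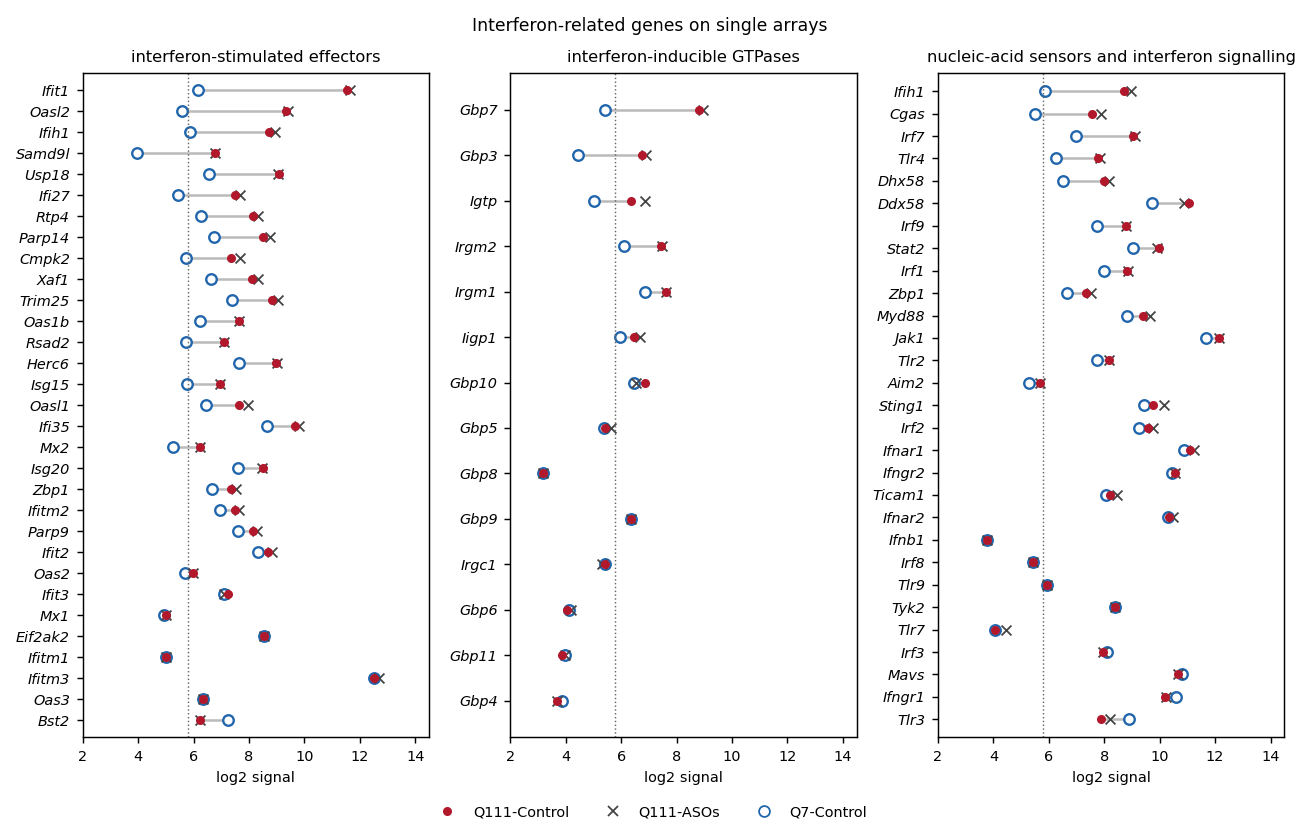
Log2 signal (x axis) of 31 interferon-stimulated effectors, 14 interferon-inducible GTPases and 29 sensors and signalling genes in Q111-Control (filled red), Q111-ASOs (cross) and Q7-Control (open blue), 1 array each; the dotted line at 5.79 is the 95th percentile of receptor genes. For 16 effectors, 4 GTPases and 7 sensors the Q111-Control point lies more than 2-fold to the right of the Q7-Control point, and the crosses lie close to the Q111-Control points.

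Promoters were searched for the core of the interferon-stimulated response element, written GAAA, any 2 bases, then GAAA, on either strand, from 250 bases before to 50 bases after the start of each gene. The core was found in 3.44% of all 32851 promoters in the RefSeq table and in 3.87% of the promoters of measured genes. It was found for 30 of 327 genes higher in Q111-Control (9.17%), for 18 of 394 lower genes (4.57%), and for 10 of 21 interferon-stimulated effectors (47.6%). These are the genes with a promoter among the 451 higher genes, the 562 lower genes and the 31 effectors. Among the effectors higher in Q111-Control it was found in 4 of 11 (36.4%). Effectors with a match and no difference over 2-fold were Ifit3, Ifitm2, Ifitm3, Oas3 and Eif2ak2, and Bst2 had a match and was lower. All 6 interferon-inducible GTPases with a promoter in the table held the core. Among chemokines the core was found in 2 of 23 (8.7%), Cxcl10, which was higher in Q111-Control, and Cxcl14, which was lower. A match is a description of the letters and not of a bound site. Stretches upstream of 5 genes higher in Q111-Control are shown in the direction of transcription, with matches in capitals (a TTTC, 2 bases, TTTC run is the core on the opposite strand); adjoining matches overlap in Isg15 and Gbp3.
Ifit1 (chr19:34640755-34640843, plus strand): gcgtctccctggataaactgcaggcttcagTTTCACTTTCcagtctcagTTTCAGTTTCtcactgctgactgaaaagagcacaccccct
Rsad2 (chr12:26456533-26456602, minus strand): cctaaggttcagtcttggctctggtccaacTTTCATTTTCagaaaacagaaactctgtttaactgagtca
Isg15 (chr4:156200845-156200926, minus strand): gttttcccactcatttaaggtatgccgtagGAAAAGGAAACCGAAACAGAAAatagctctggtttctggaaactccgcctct
Gbp3 (chr3:142559969-142560043, plus strand): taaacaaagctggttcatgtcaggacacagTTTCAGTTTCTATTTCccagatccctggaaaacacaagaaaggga
Cxcl10 (chr5:92349063-92349132, minus strand): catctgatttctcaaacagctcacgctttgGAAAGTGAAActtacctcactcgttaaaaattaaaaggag

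Other immune genes were split. Of 34 chemokines, 5 (14.7%) were higher and 3 (8.82%) lower in Q111-Control. Ccl5, a T-cell attractant, had a signal of 13.15 in Q111-Control, 13.34 in Q111-ASOs and 8.30 in Q7-Control, and the interferon-responsive Cxcl10 had 10.60 in Q111-Control and 6.93 in Q7-Control. Cxcl14 had 7.18 in Q111-Control and 10.43 in Q7-Control, and Ccl17 had 6.91 in Q111-Control and 9.03 in Q7-Control. The interleukin-1 antagonist gene Il1rn had 9.36 in Q111-Control and 6.20 in Q7-Control, as 1 of 51 cytokine genes higher, against 1 lower (1.96% each, near the shares of all genes). Among 23 genes linked to NF-kB, 4 (17.4%) were higher, such as the pentraxin gene Ptx3 (9.81 in Q111-Control, 7.25 in Q7-Control), and 2 (8.70%) were lower, of which the adhesion molecule gene Vcam1 had 8.57 in Q111-Control and 10.65 in Q7-Control. In MHC class I antigen processing 3 of 23 genes (13%) were higher, including the aminopeptidase gene Erap1 (8.36 in Q111-Control, 6.77 in Q7-Control), and 1 was lower. Another of these, the peptide-loading gene Tapbp, was within 2-fold at 0.60 with its rows averaged. The immunoproteasome subunit gene Psmb10, with 10.14 in Q111-Control and 9.03 in Q7-Control, was the only 1 of 42 proteasome genes beyond 2-fold.

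**Figure D4:**
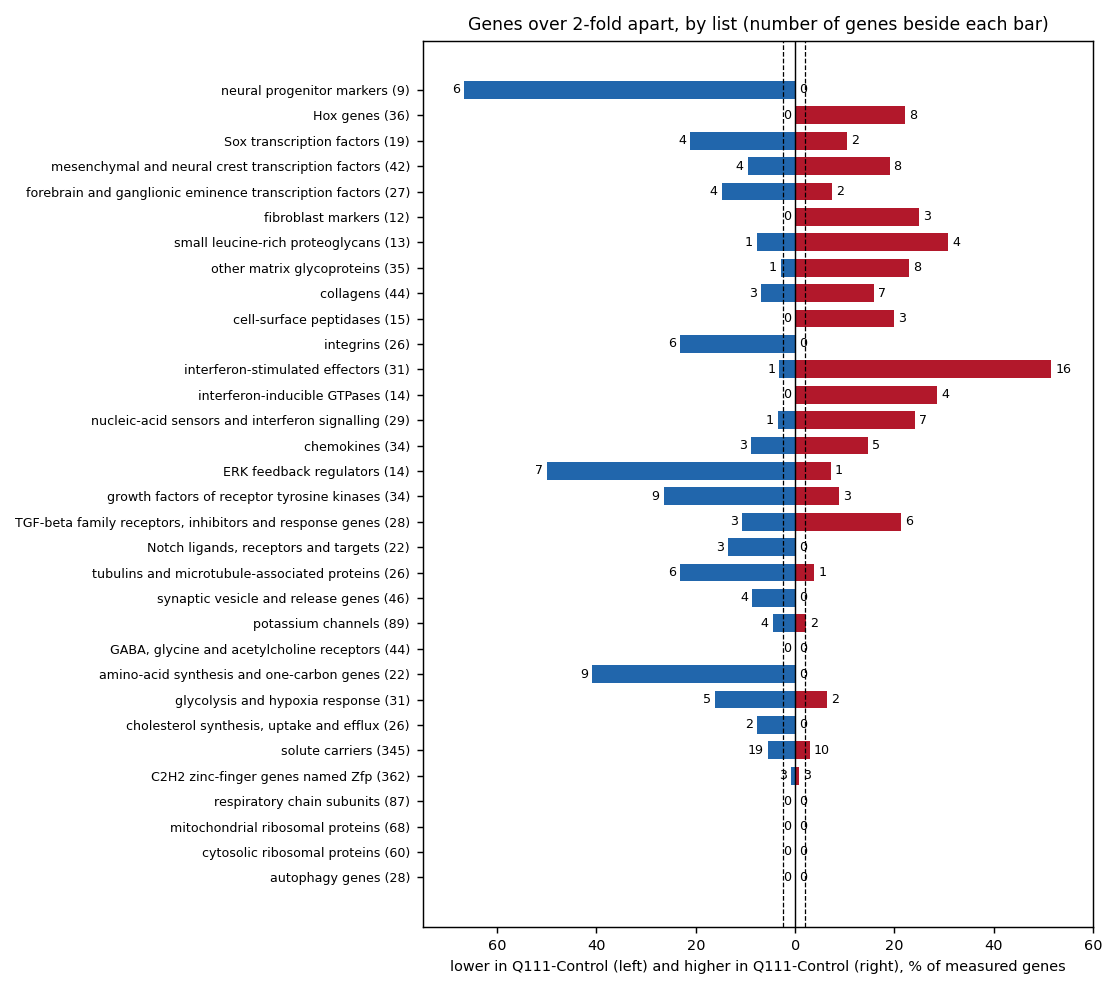
Percent of measured genes (x axis) over 2-fold lower (blue, to the left) and over 2-fold higher (red, to the right) in Q111-Control for 32 gene lists (rows, number measured in brackets, number counted beside each bar), with dashed lines at the shares of all genes, 2.53% and 2.03%. Interferon-stimulated effectors reach 51.6% on the right, neural progenitor markers 66.7% on the left, and respiratory chain, ribosomal and autophagy genes have no bar.

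Among feedback regulators of ERK, the kinase downstream of receptor tyrosine kinases, lower genes outnumbered higher ones in Q111-Control. Sprouty, Spred, Dusp and Etv genes are switched on by ERK activity and several of them restrain it. Of 14 such genes, 7 (50%) were lower, 1 (7.14%) was higher, and the median difference was −1.03. The transcription factor gene Etv5 had a signal of 6.59 in Q111-Control and 8.93 in Q7-Control, a difference of −2.34 that was −1.30 with its rows averaged, and Etv4 had 6.44 in Q111-Control and 8.07 in Q7-Control. Spry4, a Sprouty inhibitor, had 6.04 in Q111-Control and 7.95 in Q7-Control, and the phosphatase gene Dusp4 had 6.85 in Q111-Control and 8.62 in Q7-Control. Etv1 had a difference of −3.78, which was −2.20 with its rows averaged, and Dusp6 had −1.65, which was −0.83 and thus within 2-fold with its rows averaged. Spry2 had 8.13 on both arrays, and Spry3 was the higher member, with 6.53 in Q111-Control and 5.22 in Q7-Control.

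Of 34 growth factors that act on these receptors, 9 (26.5%) were lower and 3 (8.82%) higher. The insulin-like growth factor gene Igf1 had a signal of 5.83 in Q111-Control and 9.19 in Q7-Control, Pdgfb had 5.87 in Q111-Control and 8.84 in Q7-Control, and Artn, a ligand of the GDNF family, had 5.89 in Q111-Control and 8.10 in Q7-Control. Gdnf itself, a survival factor for midbrain dopamine neurons, had 6.83 in Q111-Control and 8.78 in Q7-Control. Bdnf, a trophic factor that the cortex supplies to the striatum, had 6.98 on both arrays. This is a tie of the kind seen for 43.42% of genes, so it does not show equal expression. By qRT-PCR and ELISA, the paper reported lower Bdnf transcript and protein in the STHdhQ111/Q111 line. The higher genes were Ptn, a heparin-binding growth factor (11.42 in Q111-Control, 9.10 in Q7-Control), Pros1 and Kitl. Among 31 receptor tyrosine kinases, 2 were higher and 2 lower (6.45% each), and the collagen receptor gene Ddr2 had 11.42 in Q111-Control and 7.83 in Q7-Control.

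Notch ligands, receptors and targets gave 3 lower (13.6%) and 0 higher genes of 22, all of them targets: Hey1 had a signal of 6.13 in Q111-Control and 8.92 in Q7-Control, Nrarp 5.61 in Q111-Control and 7.36 in Q7-Control, and Hes1 7.19 in Q111-Control and 8.77 in Q7-Control. Of 19 Wnt ligands, Wnt16 (8.40 in Q111-Control, 5.12 in Q7-Control) and Wnt10a (9.84 in Q111-Control, 7.47 in Q7-Control) were higher (10.5%) and 0 were lower. Secreted Wnt regulators were split, with 3 higher (17.6%) and 2 lower (11.8%) of 17. The Wnt enhancers Rspo2 and Rspo3 were higher by log2 differences of 1.59 and 1.57, and the antagonist gene Sfrp2 by 1.31, or 0.78 with its rows averaged. The antagonist gene Sfrp1 had 7.46 in Q111-Control and 10.26 in Q7-Control, and Dkk2 had 5.84 in Q111-Control and 7.69 in Q7-Control. Among 28 TGF-beta family receptors, inhibitors and response genes, 6 (21.4%) were higher and 3 (10.7%) lower. Tgfbr3, which encodes the coreceptor betaglycan, had 11.56 in Q111-Control and 8.56 in Q7-Control, Tgfbr2 had 11.98 in Q111-Control and 10.20 in Q7-Control, and the BMP antagonist gene Grem1 had 9.28 in Q111-Control and 11.12 in Q7-Control. Rgs16, which shortens G-protein signals, had the lowest difference of all named genes, with 5.41 in Q111-Control, 5.63 in Q111-ASOs and 11.50 in Q7-Control. Among 39 purinergic, protease-activated and lipid receptors, 2 (5.13%) were higher and 3 (7.69%) lower. The nucleotide receptor gene P2ry2 had 6.64 in Q111-Control and 10.03 in Q7-Control and the prostanoid receptor gene Ptgfr had 9.28 in Q111-Control and 6.89 in Q7-Control.

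Axon guidance and adhesion genes were split. Unc5c, a netrin receptor gene, had a signal of 9.78 in Q111-Control and 5.74 in Q7-Control, whereas its relative Unc5b had 7.27 in Q111-Control and 10.71 in Q7-Control. Robo1, a Slit receptor gene, had 8.83 in Q111-Control and 6.10 in Q7-Control, and the ligand gene Slit3 had 9.65 in Q111-Control and 10.95 in Q7-Control. The Slit and netrin list held 3 higher and 3 lower of 20 genes (15% each), and the semaphorin and plexin list 2 higher (6.45%) and 4 lower (12.9%) of 31. Sema3e had 8.74 in Q111-Control and 4.90 in Q7-Control. Neural immunoglobulin adhesion molecules gave 3 lower (12%) and 0 higher of 25, with Cadm1 at 6.01 in Q111-Control and 9.72 in Q7-Control and Ncam1 at 9.67 in Q111-Control and 11.65 in Q7-Control. Cdh2, the neural cadherin gene, had 10.84 in Q111-Control and 12.12 in Q7-Control.

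Several genes with the greatest differences belonged to none of these groups or to small families. Tenm3, a teneurin that guides synaptic partners, had a signal of 5.21 in Q111-Control, 5.05 in Q111-ASOs and 10.04 in Q7-Control. Prune2 had 6.66 in Q111-Control and 11.11 in Q7-Control, and the sialic acid lyase gene Npl had 6.59 in Q111-Control and 10.65 in Q7-Control. Fhl1, a LIM-domain protein gene of muscle, had 7.36 in Q111-Control and 11.14 in Q7-Control, and the band 4.1 relative Epb41l4a had 6.43 in Q111-Control and 10.39 in Q7-Control. Higher genes of this kind were Capn6, a calpain relative without protease activity (10.58 in Q111-Control, 5.80 in Q7-Control), and Emb, which encodes the adhesion protein embigin (11.64 in Q111-Control, 7.04 in Q7-Control). When all rows were averaged, Emb had a difference of 2.34 in place of 4.59, and Tmem47, a junction-associated membrane protein gene, had −2.18 in place of −4.21.

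Most genes of the neuronal cytoskeleton and of synapses that differed were lower in Q111-Control. Of 26 tubulins and microtubule-associated proteins, 6 (23.1%) were lower and 1 (3.85%), the kinase gene Dclk1, was higher (10.92 in Q111-Control, 9.72 in Q7-Control), with a list median of −0.21. Stmn2 had a signal of 6.36 in Q111-Control and 11.13 in Q7-Control, and its paralogue Stmn3, which also binds free tubulin, had 6.74 in Q111-Control and 9.62 in Q7-Control. Map1b, which stabilises axonal microtubules, had 8.89 in Q111-Control and 11.49 in Q7-Control, and the tubulin gene Tubb2b had 7.71 in Q111-Control and 9.66 in Q7-Control. Map2, the dendritic protein gene, had 10.57 in Q111-Control and 10.35 in Q7-Control. Of 46 synaptic vesicle and release genes, 4 (8.70%) were lower and 0 higher, and 25 had a difference below 0 against 2 above 0. Beside Syn1 and Unc13a these were the clathrin adaptor gene Snap91 (5.35 in Q111-Control, 7.27 in Q7-Control) and the active-zone gene Rims2 (7.61 in Q111-Control, 9.14 in Q7-Control).

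Ion channels and receptors were mostly within 2-fold. Of 89 potassium channel genes, 2 (2.25%) were higher, about the 2.03% of all genes, 4 (4.49%) were lower, against 2.53% of all genes, and 46 had equal signals. The inward rectifier gene Kcnj2 had a signal of 9.59 in Q111-Control and 5.54 in Q7-Control, and the channel-interacting protein gene Kcnip1 had 5.11 in Q111-Control and 9.26 in Q7-Control. The embryonic sodium channel gene Scn3a had 9.30 in Q111-Control and 5.46 in Q7-Control, and the mechanosensitive channel gene Piezo2 had 8.54 in Q111-Control and 5.62 in Q7-Control. Of 25 calcium channel genes 2 (8%) were higher and 1 (4%) lower, and Cacna1a had 6.34 in Q111-Control and 8.58 in Q7-Control. None of 44 GABA, glycine and acetylcholine receptor genes and none of 28 monoamine, cannabinoid, opioid and adenosine receptor genes differed by more than 2-fold, and 15 and 7 of them had a signal above the range of sensory receptors on either array.

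Metabolic lists went in different directions. Serine, glycine and one-carbon enzymes with their amino-acid transporters supply nucleotide and glutathione synthesis and many of their genes are targets of the transcription factor Atf4. Of 22 such genes, 9 (40.9%) were lower in Q111-Control, against 2.53% of all genes, 20 had a difference below 0, 0 had a difference above 0, and the median was −0.76. With rows averaged, 8 were lower. The cystine transporter gene Slc7a11 had a signal of 6.76 in Q111-Control and 9.96 in Q7-Control, Cth, which makes cysteine, had 7.49 in Q111-Control and 8.96 in Q7-Control, and the folate enzyme gene Aldh1l2 had 8.46 in Q111-Control and 9.80 in Q7-Control. Slc7a11 had a difference of −2.16 when its rows were averaged. Asparagine synthetase Asns had 9.33 in Q111-Control and 10.60 in Q7-Control, and Phgdh and Psat1, the first enzymes of serine synthesis, had differences of −0.39 and −0.50. Among 28 unfolded protein and integrated stress response genes, 4 (14.3%) were lower and 0 higher, including Asns again and the glutathione-degrading enzyme gene Chac1, with 7.64 in Q111-Control and 8.98 in Q7-Control.

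Cholesterol genes had a median of −0.61, with 20 of 26 below 0 and 5 above 0, but only Msmo1 and Insig1 (both −1.09) passed 2-fold, or 7.69%. Squalene epoxidase Sqle had a signal of 10.74 in Q111-Control and 11.49 in Q7-Control, and Hmgcs1 had 11.33 in Q111-Control and 11.93 in Q7-Control. Of 31 glycolysis and hypoxia response genes, 5 (16.1%) were lower and 2 (6.45%) higher, with a median of −0.36 and 23 below 0. Egln3, an oxygen-sensing prolyl hydroxylase, had 6.35 in Q111-Control and 10.12 in Q7-Control, the glucose transporter gene Slc2a3 had 6.05 in Q111-Control and 8.48 in Q7-Control, and Vegfa had 8.71 in Q111-Control and 10.39 in Q7-Control. The lactate dehydrogenase gene Ldhb was higher, with 9.53 in Q111-Control and 7.42 in Q7-Control. Fatty acid and lipid droplet genes had 4 higher (13.8%) and 1 lower (3.45%) of 29, 14 differences above 0 and 11 below 0, and a median of 0.00. The adipocyte fatty acid-binding protein gene Fabp4 had 6.94 in Q111-Control and 3.59 in Q7-Control, where it was inside the receptor range, the lipid droplet gene Plin4 had 9.03 in Q111-Control and 6.64 in Q7-Control, and Pparg, a regulator of fat cell genes, had 10.17 in Q111-Control and 9.03 in Q7-Control. The lipoprotein lipase gene Lpl had a difference of 1.07, or 0.54 with its rows averaged. Of 21 prostaglandin and steroid metabolism genes, 3 (14.3%) were higher and 1 (4.76%) lower. Hpgd, which inactivates prostaglandins, had 8.86 in Q111-Control and 4.92 in Q7-Control, and Cyp1b1 had 11.11 in Q111-Control and 7.21 in Q7-Control, whereas the cyclooxygenase gene Ptgs2 had 9.64 in Q111-Control and 11.37 in Q7-Control.

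Core machinery was close on the 2 arrays. None of 87 respiratory chain subunits, 68 mitochondrial ribosomal proteins, 60 cytosolic ribosomal proteins and 28 autophagy genes differed by more than 2-fold, and their medians were all 0.00. Differences ranged over genes between −0.67 and 0.87 for the respiratory chain, between −0.72 and 0.39 for cytosolic ribosomal proteins, and between −0.44 and 0.56 for autophagy. Ribosomal protein genes have near-identical pseudogenes, which could add to their signals. Of 44 cell cycle and replication genes only the D-type cyclins Ccnd1 and Ccnd2, which link growth signals to the cycle, passed 2-fold: Ccnd1 had 9.15 in Q111-Control and 11.88 in Q7-Control, and Ccnd2 had 8.20 in Q111-Control and 10.84 in Q7-Control. The proliferation marker Mki67 had 11.90 in Q111-Control and 11.46 in Q7-Control, and Top2a had 11.65 in Q111-Control and 11.62 in Q7-Control. None of 8 cyclin-dependent kinase inhibitors passed 2-fold, which in so short a list is near the shares of all genes, and Cdkn2a had 11.06 in Q111-Control and 11.11 in Q7-Control.

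**Figure D5:**
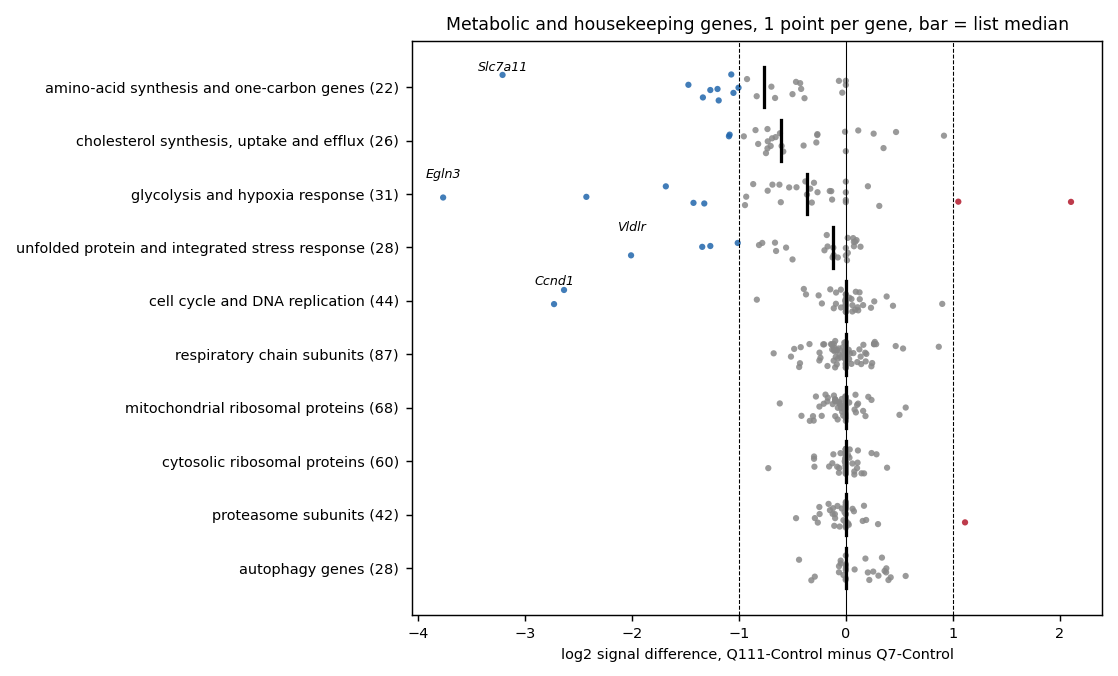
Log2 signal difference (x axis, Q111-Control minus Q7-Control) of each gene, 1 point per gene, in 10 metabolic and housekeeping lists (rows, number measured in brackets), with the list median as a bar and dashed lines at 2-fold. Amino-acid and one-carbon genes centre at −0.76 with no point above 0, and respiratory chain and ribosomal genes centre at 0.00.

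Solute carriers, the largest transporter family, held 10 higher (2.90%) and 19 lower (5.51%) of 345 genes. Slc43a3, a purine carrier, had a signal of 11.64 in Q111-Control and 6.51 in Q7-Control, and the choline transporter gene Slc5a7 had 8.83 in Q111-Control and 6.34 in Q7-Control. On the other side the glutamine transporter gene Slc38a1 had 7.82 in Q111-Control and 11.14 in Q7-Control, and the endosomal exchanger gene Slc9a9 had 5.57 in Q111-Control and 8.13 in Q7-Control. C2H2 zinc-finger genes named Zfp, in contrast, had 3 higher and 3 lower of 362, or 0.829% in each direction. Genes were also grouped by the letters of their symbol, which gave 155 families of at least 15 genes, 65 of them with no gene over 2-fold. Shares of higher genes were greatest for Col (15.9% of 44), Tnfrsf (15% of 20) and Ly (13% of 23), and shares of lower genes for Sox (19% of 21), Dusp (16.7% of 24) and Sema (15% of 20).

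Some differences lay side by side in the genome. Over 22136 genes placed by RefSeq, 9 runs of at least 3 neighbouring measured genes were over 2-fold in the same direction, 7 of them higher in Q111-Control and 2 lower. Gm53, Mir196a-1, Hoxb9 and Hoxb8 formed 1 run and Hoxb6, Hoxb5 and Hoxb3 a second, though Hoxb5 was at 0.92 with its rows averaged. The proteoglycan genes Aspn, Omd and Ogn formed another run, with differences of 6.65, 2.99 and 2.57, and Gbp7, Gbp3 and Gbp2b a further one, with 3.37, 2.31 and 1.23. Slc1a3, Ranbp3l and Nadk2 were higher together by 2.15, 1.68 and 1.45. Carmn, a long noncoding RNA of smooth muscle, had 8.19 in Q111-Control and 7.12 in Q7-Control, and Mir143 beside it had 6.95 in Q111-Control and 5.73 in Q7-Control. These 2 form a run of 3 only with Mir145a, whose signals of 4.81 in Q111-Control and 3.68 in Q7-Control were both inside the receptor range. A run of 5 Mir669 and Mir466b copies was higher too, but these copies are near-identical and their signals cannot be assigned to single genes. The runs lower in Q111-Control were Mef2c, C130071C03Rik and Mir9-2 (−2.62, −3.19 and −3.76), and Mir99ahg, Mir99a and Mirlet7c-1 (−1.57, −1.17 and −2.08). Neighbours that share a transcript are not independent measurements.

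Huntingtin and the repressor Rest were within 2-fold. Htt had a signal of 9.05 in Q111-Control, 8.97 in Q111-ASOs and 9.85 in Q7-Control, a difference of −0.80. This value summarises the transcript, so it does not separate the humanized exon 1 from the other exons. Rest had 9.16 in Q111-Control, 9.33 in Q111-ASOs and 9.16 in Q7-Control. These are transcript signals and do not measure the nuclear Rest protein, which the paper reported by immunostaining as higher in the STHdhQ111/Q111 line. Of 25 genes for huntingtin and its protein partners, only the kinesin heavy chain gene Kif5c passed 2-fold, with 6.13 in Q111-Control and 9.25 in Q7-Control, while Hap1 had 7.53 in Q111-Control and 7.86 in Q7-Control. None of 16 genes for Rest and its corepressors passed 2-fold, which in so short a list is near the shares of all genes (2.03% higher and 2.53% lower). Of the 16, 6 had equal signals, a tie that does not show equal expression, among them the corepressor gene Rcor1 with 10.43 on both arrays. Gapdh had 13.04 on all 3 arrays. Xist had 12.66 on both arrays and the Y-linked Eif2s3y had 4.95 in Q111-Control and 5.12 in Q7-Control, inside the receptor range. Terc, the RNA template of telomerase, had 11.23 in Q111-Control, 11.17 in Q111-ASOs and 6.11 in Q7-Control, whereas Tert, its protein partner, had 6.41 in Q111-Control and 5.97 in Q7-Control. The imprinted gene Mest had 11.14 in Q111-Control and 6.47 in Q7-Control, as 1 of 3 higher (9.38%) and 2 lower (6.25%) among 32 imprinted genes. Plagl1, another of the higher genes, was within 2-fold at 0.53 with its rows averaged.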

How the data were processed

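Total RNA of 1 culture each of Q111-Control, Q7-Control and Q111-ASOs was hybridised to Affymetrix Mouse Gene 2.0 ST arrays. The authors used Partek software to make the deposited values, which are log2 signals, 1 per transcript cluster. How they corrected background, normalized and summarized probes, and with which software version, was not given in the sources used here, and the scale was read from the values. Values were used as deposited. Rows were named through the array's probe annotation, with symbols updated by gene ID from a RefSeq table of GRCm38.p6 (23328 of 23521 rows with 1 symbol matched). Where a gene had several rows (1082 genes), that of highest mean over 3 arrays was kept. Sequences and gene order are from RefSeq (GRCm38.p6).

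Differences were counted over 2-fold and the counts of each gene list were read against the shares of all genes. The comparison and the lists were chosen with earlier results of these data known. Named genes are the 15 highest and 15 lowest differences among genes whose higher signal of the 2 arrays reached the all-gene median of 6.55 (without predicted genes, small RNAs and sensory receptors), then up to 4 genes per list and direction by the same signal rule, with Htt, Rest and Gapdh. Any other gene, and each microRNA gene, was chosen after its value was seen. The alternatives tried were quantile normalization, centring each array on its median, scaling to Gapdh, 2 minimum signals, averaging the rows of a gene, counting every row, and criteria of 1.5-fold and 3-fold. Counting was tested on simulated data. Python 3.11.15, numpy 2.4.6, pandas 2.3.3 and matplotlib 3.10.9 were used.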

Additional observations from a re-analysis of the deposited data

Results flagged for a closer look

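Rows outside the gene-level comparison also differed between the lines. Of 16004 rows with no listed gene, 651 (4.07%) were higher in Q111-Control by more than 2-fold and 136 (0.85%) were lower. The 651 higher rows had a median log2 signal of 6.67 in Q111-Control, 6.34 in Q111-ASOs and 5.29 in Q7-Control. Of 1820 rows with several symbols, 39 (2.14%) were higher in Q111-Control and 18 (0.989%) lower. What these rows measure was not tested.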

How the results depend on the processing

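No paired analysis was possible because 1 array was made per condition. The numbers of higher and lower genes stayed within 1.5 times the main counts under arrays centred on their medians, quantile normalization, both minimum signals and averaged rows. They were 861 higher and 1153 lower with a 1.5-fold criterion, 233 higher and 254 lower with a 3-fold criterion, and 1170 higher and 728 lower with all rows of the value table, where higher rows outnumbered lower ones, whereas lower genes outnumbered higher ones (562 and 451) in the comparison of genes. Centring moved the median difference of all genes by 0.03 on the log2 scale and quantile normalization by −0.04. Values were called moved past 0.13 on the log2 scale, the SD over genes of the Q111-ASOs minus Q111-Control differences. Centring shifts every difference by the same 0.03, so it could not move any gene or list past that limit. Scaling to Gapdh could not either, because the Gapdh signal was equal on the 2 arrays. These 2 alternatives are therefore no check of single genes or list medians. Over 110 lists, 32 medians moved by more than that when genes under the all-gene median signal were left out, and no list median or named gene that differed by more than that amount changed direction. Averaging rows moved 25 of 370 named genes by more than 0.13, brought 14 of the 367 that were over 2-fold within it, and changed the counts of 18 lists. Depth cannot be given for array signals. Low signals near the receptor range limit the folds of genes silent in 1 line.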
